A study of Homo sapiens with 25 samples.

Results

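In HCT116 cells, an established line from a human colorectal carcinoma, 402 of 35854 MLL4 regions (1.12%) were present only with FOXD2. They were found by merging overlapping or adjoining peaks of the 4 MLL4 lists on chromosomes 1 to 22 and X. A member had at least 1 bp of a peak in both FOXD2 lists and none in either Control list, and coordinates are given in hg38. FOXD2 cells carried the full FOXD2 coding sequence in the lentiviral vector pSin, and Control cells carried the empty vector. Tagged cells carried a pcDNA3.1 plasmid for FOXD2 with 3xFLAG and 6xHis tags, and were precipitated with antibodies to each tag. The labels give the same medium for all libraries, DMEM with serum, penicillin, streptomycin and puromycin, and describe the vector cells as stable transduced lines. MLL4, H3K4me1 and H3K27ac were each profiled by chromatin immunoprecipitation and sequencing in 2 FOXD2 and 2 Control libraries, H3K4me3 in 1 of each, and each tag in 2 libraries. The labels do not say that replicates came from separate cultures, so p-values concern only these libraries and not variation between cultures. They give no FOXD2 level, and the tag lists have no counterpart from untagged cells here.

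MLL4, encoded by KMT2D, is a histone methyltransferase that places monomethyl marks on lysine 4 of histone H3 (H3K4me1) at enhancers and cooperates with the acetyltransferases that add H3K27ac. H3K4me1 is found at enhancers whether or not they are active, H3K27ac at active enhancers and promoters, and H3K4me3 at promoters. FOXD2 is a forkhead transcription factor, and loss-of-function mutations of KMT2D are frequent in human cancers.

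Of the members, 23 overlapped an annotated promoter window, the stretch from 250 bases before to 50 bases after a transcription start, in the RefSeq table of GRCh38.p14. Some promoter windows were not analysed here, so 23 is a lower bound. The 23 members overlapped 30 windows of 27 genes. The sequences below show the promoters at members where H3K27ac, like MLL4, was found in both FOXD2 lists and neither Control list, 1 for each of the 5 such members (the window with the larger overlap where there were several), followed by that of ARL6IP5, where tagged FOXD2 had a site in all 4 tag lists. LOC105376625 and ARL6IP5 belong to members named by the stated rule, and the other 4 were chosen after their values were seen. Capitals mark matches on either strand to the AP-1 site TGANTCA, the TEAD site GGAATG, the GC box GGGCGG or the forkhead core TGTTTAC. LOC105376625, LOC107986772 and LOC124906298 are long noncoding RNA genes, TMCC3 encodes a membrane protein of the endoplasmic reticulum and SH3GL3 encodes an endophilin.
LOC105376625 promoter, chr11:34825805-34826104, minus strand: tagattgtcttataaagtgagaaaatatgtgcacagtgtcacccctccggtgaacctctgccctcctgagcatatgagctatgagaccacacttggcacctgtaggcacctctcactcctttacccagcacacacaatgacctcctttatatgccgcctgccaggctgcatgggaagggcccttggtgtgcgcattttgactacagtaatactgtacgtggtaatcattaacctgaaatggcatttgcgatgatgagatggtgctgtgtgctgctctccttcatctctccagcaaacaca
LOC107986772 promoter, chr7:17099554-17099853, plus strand: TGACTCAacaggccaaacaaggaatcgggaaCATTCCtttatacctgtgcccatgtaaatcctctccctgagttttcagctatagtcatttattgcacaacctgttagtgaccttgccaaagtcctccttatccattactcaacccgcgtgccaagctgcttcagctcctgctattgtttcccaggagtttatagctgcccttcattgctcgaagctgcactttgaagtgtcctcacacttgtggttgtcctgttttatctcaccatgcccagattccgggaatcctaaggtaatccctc
TMCC3 promoter, chr12:94615952-94616251, minus strand: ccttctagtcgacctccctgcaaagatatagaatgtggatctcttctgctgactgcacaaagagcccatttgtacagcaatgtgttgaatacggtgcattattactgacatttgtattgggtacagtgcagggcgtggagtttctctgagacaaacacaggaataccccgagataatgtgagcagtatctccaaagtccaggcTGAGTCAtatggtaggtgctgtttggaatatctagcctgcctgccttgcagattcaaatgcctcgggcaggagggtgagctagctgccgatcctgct
SH3GL3 promoter, chr15:83447091-83447390, plus strand: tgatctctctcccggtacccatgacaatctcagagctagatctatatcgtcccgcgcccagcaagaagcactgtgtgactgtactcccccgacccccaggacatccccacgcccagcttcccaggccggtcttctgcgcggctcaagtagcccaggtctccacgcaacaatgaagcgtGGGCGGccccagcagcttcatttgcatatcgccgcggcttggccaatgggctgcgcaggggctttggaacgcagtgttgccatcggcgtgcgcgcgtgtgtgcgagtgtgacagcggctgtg
LOC124906298 promoter, chr3:156456902-156457201, minus strand: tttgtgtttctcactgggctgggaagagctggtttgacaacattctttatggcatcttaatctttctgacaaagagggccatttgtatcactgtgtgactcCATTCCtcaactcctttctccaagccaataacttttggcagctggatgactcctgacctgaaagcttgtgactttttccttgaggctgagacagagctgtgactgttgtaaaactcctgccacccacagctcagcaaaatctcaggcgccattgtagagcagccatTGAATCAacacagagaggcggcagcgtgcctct
ARL6IP5 promoter, chr3:69084687-69084986, plus strand: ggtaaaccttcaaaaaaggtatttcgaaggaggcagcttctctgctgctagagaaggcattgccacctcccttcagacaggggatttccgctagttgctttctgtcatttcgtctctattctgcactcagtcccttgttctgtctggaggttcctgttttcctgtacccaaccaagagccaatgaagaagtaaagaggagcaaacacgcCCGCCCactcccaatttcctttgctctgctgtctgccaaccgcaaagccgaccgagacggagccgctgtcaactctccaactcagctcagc

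An AP-1 match was present in the windows of 7 of the 23 members, and in 9 of the 30 windows (30.0%), against 7.68% of all 34961 promoter windows of the table. The 7 members lay at or nearest to AHR, AQP5, BFSP1, KCNAB1, KSR1, TMCC3 and TMPRSS11F. Several windows of 1 member overlap each other and share matches. GC boxes were present in 46.7% of the members' windows and 45.0% of all windows, and TEAD matches in 10.0% of the members' windows and 14.0% of all windows. The forkhead core was in 0 of the 30 windows and 3.42% of all windows. Of the sequences shown, LOC107986772 and LOC124906298 each held an AP-1 and a TEAD match that did not overlap, TMCC3 held an AP-1 match, SH3GL3 and ARL6IP5 each held a GC box, and LOC105376625 held none of the 4. A match describes letters in a window and not a bound site. Motif shares were not counted for windows at other MLL4 regions, so a difference from all windows need not be particular to the members.

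The number of MLL4 peaks differed widely between libraries, with 22493 and 4676 in the FOXD2 lists and 16046 and 13571 in the Control lists. Membership therefore required a peak in the short second FOXD2 list, and 13589 further regions were present in the first FOXD2 list alone against 840 in the second alone. The classes set beside the members were 2559 control-only regions (both Control lists and neither FOXD2 list) and 2183 regions of all 4 lists. The H3K4me1 lists held 114893 and 129887 peaks in FOXD2 cells and 101204 and 95756 in Control cells, and the H3K27ac lists 85122 and 141008 in FOXD2 cells and 129995 and 85832 in Control cells. The read depth is unknown. H3K4me3 lay in or within 2 kb of 9 of 10 colon epithelial marker genes in both the FOXD2 and the Control list, and VIL1 was the one without a peak. It also lay at 3 of 6 blood, 4 of 6 fibroblast or endothelial, and 4 (FOXD2) or 5 (Control) of 6 neural marker genes, and PTPRC, CD3E, CD14, COL1A2, DCN and NEUROD1 had none in either list. This check counts any H3K4me3 peak in reach, those of neighbouring genes included. One marker gene, the endothelial cadherin CDH5, was nearest to a member.

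Members had a median width of 572 bp (282 to 1733 bp), against 416 bp over all MLL4 regions. Control-only regions had a median of 566 bp and regions of all 4 lists 946 bp. The authors' fold enrichment of the MLL4 peak in a member had a median of 5.47 (3.08 to 18.4) in FOXD2 replicate 1 and 5.96 (3.00 to 16.8) in FOXD2 replicate 2. These are the values that chose the members and are given as a description. By the rule, no member overlapped a Control MLL4 peak. The nearest such peak was over 5 kb away for 313 members and within 500 bp for 13, at a median distance of 20815 bp. These distances were not counted for other regions, so they have no background beside them. At the weak edge were members at LY9 (fold 3.76 and 4.00), DRC10 (3.60 and 4.00) and GLT8D2 (3.50 and 5.14). Just outside the rule, regions in both FOXD2 lists and 1 Control list lay in TBC1D9 (FOXD2 11.5 and 17.4, Control replicate 2 10.2), POGLUT3 (FOXD2 10.6 and 15.7, Control replicate 1 7.47) and CIB4 (FOXD2 12.2 and 14.8, Control replicate 1 5.81).

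The members carried H3K4me1 in both kinds of cell, and more of them carried it with FOXD2. An H3K4me1 peak overlapped 400 and 400 of the 402 members (99.5% and 99.5%) in the FOXD2 libraries, and 373 and 367 (92.8% and 91.3%) in the Control libraries. The groups did not overlap, and the means of 99.5% ± 0 in FOXD2 and 92.0% ± 1.06 in Control libraries (SD, n = 2 each) differed by 7.46 points (two-sided exact permutation p = 0.33, the smallest that 2 against 2 libraries allow). At control-only regions the means were 93.8% ± 2.35 in FOXD2 and 95.1% ± 2.10 in Control libraries (n = 2 each, exact permutation p = 0.667), and at regions of all 4 MLL4 lists the difference was -0.02 points (exact permutation p = 1). Relative to the regions of all 4 lists in the same library, the members' difference was 7.49 points (n = 2 each, exact permutation p = 0.33). With all lists of a kind cut to equal length, the difference was 2.2 points.

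Most members, 359 (89.3%), had H3K4me1 in all 4 lists. H3K4me1 gain, meaning a peak in both FOXD2 lists and neither Control list, was found at 19 members (4.73%, 95% Wilson interval 3.05% to 7.26%), against 1.31% of all MLL4 regions and 14.2% of all merged H3K4me1 regions. H3K4me1 loss, the reverse, was found at 0 members, against 1.15% of all MLL4 regions and 4.39% of all merged H3K4me1 regions. Only 21 members had no H3K4me1 in either Control list, and 19 of them (90.5%) had it in both FOXD2 lists. The corresponding share was 3 of 79 (3.80%) in control-only regions and 469 of 11479 (4.09%) in all MLL4 regions. The intervals cover the counting of regions only. The gain count became 33 of the same 402 members (8.21%) without Control H3K4me1 replicate 1, and 99 of 1260 regions (7.86%) without FOXD2 MLL4 replicate 1. It became 307 of 13999 (2.19%) without FOXD2 MLL4 replicate 2, and 7 of 455 regions (1.54%) at equal list lengths. The last share was close to the 1.31% of all MLL4 regions.

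H3K27ac separated the groups more widely. A peak overlapped 328 and 316 members (81.6% and 78.6%) in the FOXD2 libraries, and 180 and 169 (44.8% and 42.0%) in the Control libraries. The groups did not overlap, and FOXD2 replicate 1, with the fewest peaks of the 4 H3K27ac lists, had the highest share. The means of 80.1% ± 2.11 in FOXD2 and 43.4% ± 1.93 in Control libraries (SD, n = 2 each) differed by 36.7 points (two-sided exact permutation p = 0.33). At control-only MLL4 regions, the means were 82.5% ± 2.32 in FOXD2 and 80.1% ± 1.74 in Control libraries, a difference of 2.33 points (n = 2 each, exact permutation p = 0.667). At regions of all 4 MLL4 lists, they were 95.9% ± 1.36 in FOXD2 and 91.5% ± 0.615 in Control libraries, a difference of 4.42 points (n = 2 each, exact permutation p = 0.33). The members' difference exceeded that at the regions of all 4 lists by 32.3 points and that at control-only regions by 34.4 points (n = 2 each, exact permutation p = 0.33 for both), and with lists of equal length the first of these was 21.2 points. In Control cells the members thus held H3K27ac less often than either other class, and in FOXD2 cells they came within 2.35 points of the control-only regions.

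**Figure D1:**
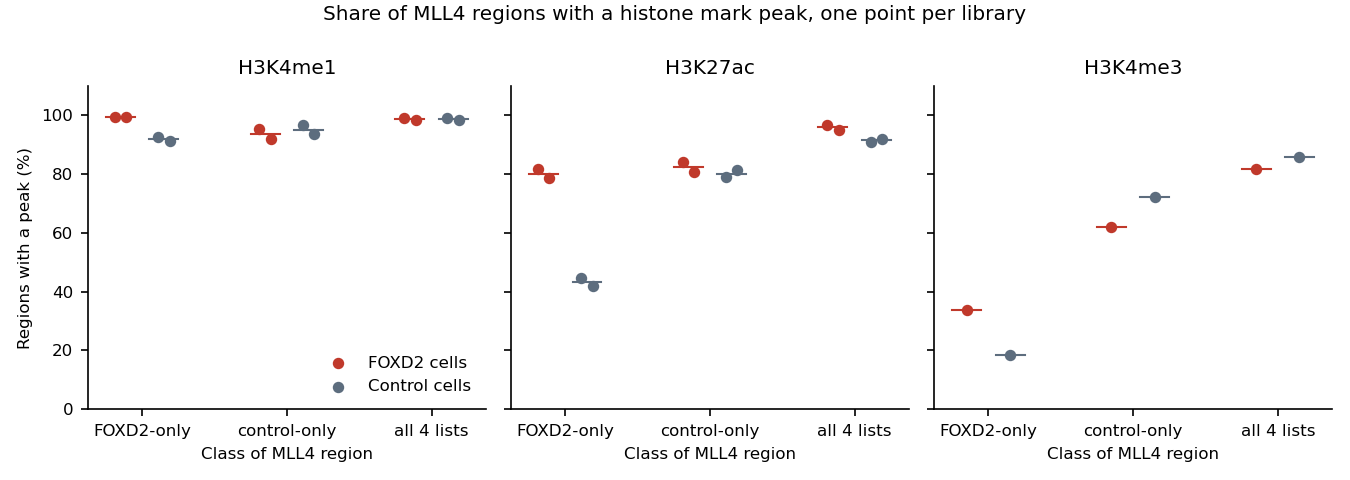
Share of MLL4 regions (%) with an H3K4me1, H3K27ac or H3K4me3 peak in 3 classes of region; points are libraries, FOXD2 left of Control, and lines are group means. The widest gap is for H3K27ac at FOXD2-only regions, at 81.6% and 78.6% in FOXD2 against 44.8% and 42.0% in Control libraries.

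Of the MLL4 lists, the second FOXD2 list weighed most on which regions were members and on the size of these differences. Without FOXD2 MLL4 replicate 2, 13999 regions met the rule, and the differences were 0.229 points for H3K4me1 and 5.63 points for H3K27ac. The FOXD2 and Control libraries overlapped there for both marks (exact permutation p = 0.667 for H3K27ac). Without FOXD2 MLL4 replicate 1, 1260 regions met it, with differences of 9.80 and 29.7 points. Leaving out Control MLL4 replicate 1 or 2 gave 551 and 649 regions, with H3K4me1 differences of 5.44 and 4.39 points and H3K27ac differences of 30.1 and 29.3 points. The part that library quality played was not tested.

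H3K27ac gain was found at 96 members (23.9%, 95% Wilson interval 20.0% to 28.3%), against 3.72% of all MLL4 regions and 5.25% of all merged H3K27ac regions. H3K27ac loss was found at 1 member, in ZBTB7C, a gene for a BTB zinc finger protein, against 0.985% of all MLL4 regions and 2.46% of all merged H3K27ac regions. Another 127 members had H3K27ac in all 4 lists, 144 had other combinations and 34 had none. Of the 96 members with H3K27ac gain, 80 had H3K4me1 in all 4 lists, 10 gained both marks and 6 had H3K4me1 in 3 lists. Counting lists rather than requiring all of them, 214 members (53.2%) had H3K27ac in more FOXD2 than Control lists, 14 (3.48%) in fewer and 174 in equal numbers. Over all MLL4 regions, 18.1% had it in more and 9.77% in fewer. More and fewer were 13.5% and 9.73% at control-only regions, and 8.43% and 2.15% at regions of all 4 lists. For H3K4me1 the members' counts were 41 (10.2%) in more, 0 in fewer and 361 in equal numbers. Over all MLL4 regions, 4.80% had H3K4me1 in more and 5.52% in fewer. The H3K27ac gain count became 225 of 1260 regions (17.9%) without FOXD2 MLL4 replicate 1, and 524 of 13999 (3.74%) without replicate 2. The latter share was close to the 3.72% of all MLL4 regions.

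The room for gain differed between classes. Among members, 186 had H3K27ac in neither Control list, and of these 96 (51.6%) had it in both FOXD2 lists, 56 in 1 and 34 in none. The corresponding shares were 69 of 351 (19.7%) at control-only regions, 57 of 116 (49.1%) at regions of all 4 lists and 1332 of 9332 (14.3%) over all MLL4 regions. The rate among regions without H3K27ac in Control cells was therefore close for members and regions of all 4 lists, while a larger share of members lacked the mark there.

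**Figure D2:**
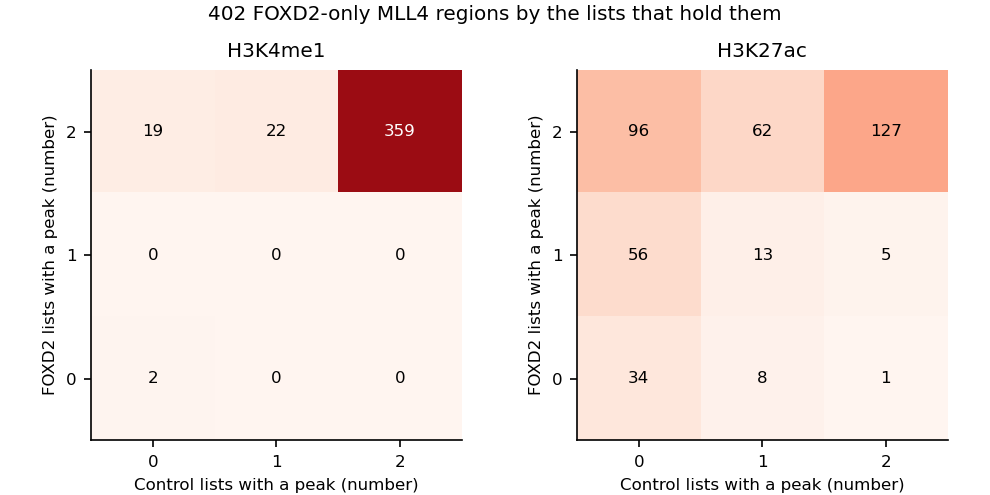
Number of FOXD2-only MLL4 regions by how many of the 2 FOXD2 lists (vertical axis) and of the 2 Control lists (horizontal axis) held an H3K4me1 (left) or H3K27ac (right) peak. For H3K4me1, 359 regions fall in the corner of both groups, and for H3K27ac 127 fall there and 96 are held by both FOXD2 lists and no Control list.

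The marks also covered more DNA around the members. Within 5 kb either side of a member's centre, H3K4me1 peaks covered on average 4792 and 5203 bp in the FOXD2 libraries and 3061 and 2762 bp in the Control libraries. The groups did not overlap, and the means of 4998 ± 290 bp in FOXD2 and 2912 ± 211 bp in Control libraries (SD, n = 2 each) stood at a ratio of 1.72 (exact permutation p = 0.33). H3K27ac covered 3389 and 3618 bp in the FOXD2 libraries and 1762 and 1496 bp in the Control libraries. The means of 3503 ± 162 bp in FOXD2 and 1629 ± 189 bp in Control libraries (SD, n = 2 each) stood at a ratio of 2.15 (exact permutation p = 0.33). The same ratios were 0.976 for H3K4me1 and 1.15 for H3K27ac at control-only regions, and 1.10 and 1.28 at regions of all 4 lists. With lists of equal length, the differences of 2086 bp for H3K4me1 and 1875 bp for H3K27ac became 1534 bp and 1796 bp. Without FOXD2 MLL4 replicate 2 they became 221 bp and 610.2 bp, and the groups overlapped for both marks.

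Region by region, both FOXD2 libraries exceeded both Control libraries in H3K4me1 bases at 333 members (82.8%), against 27.1% of all MLL4 regions, and fell below both at 12 (2.99%), against 17.8%. For H3K27ac bases the counts were 271 members above (67.4%), against 28.4% of all MLL4 regions, and 6 below (1.49%), against 5.43%. Both FOXD2 H3K4me1 lists were longer than both Control lists. With lists of equal length, 307 of 455 regions (67.5%) were above for H3K4me1 and 291 (64.0%) for H3K27ac. The median difference per member was 1854 bp for H3K4me1 and 1635 bp for H3K27ac. Regions of all 4 MLL4 lists, where both FOXD2 libraries exceeded both Control libraries at 41.4% for H3K4me1 and 52.3% for H3K27ac, had medians of 337 bp and 1049.5 bp. Control-only regions had medians of -66.5 bp and 435 bp. The counts above became 950 (75.4%) and 722 (57.3%) of 1260 regions without FOXD2 MLL4 replicate 1. Without FOXD2 MLL4 replicate 2 they became 3235 (23.1%) and 2741 (19.6%) of 13999. Both of the latter shares were below those of all MLL4 regions, 27.1% and 28.4%. The H3K27ac count became 424 of 649 (65.3%) without Control MLL4 replicate 2.

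**Figure D3:**
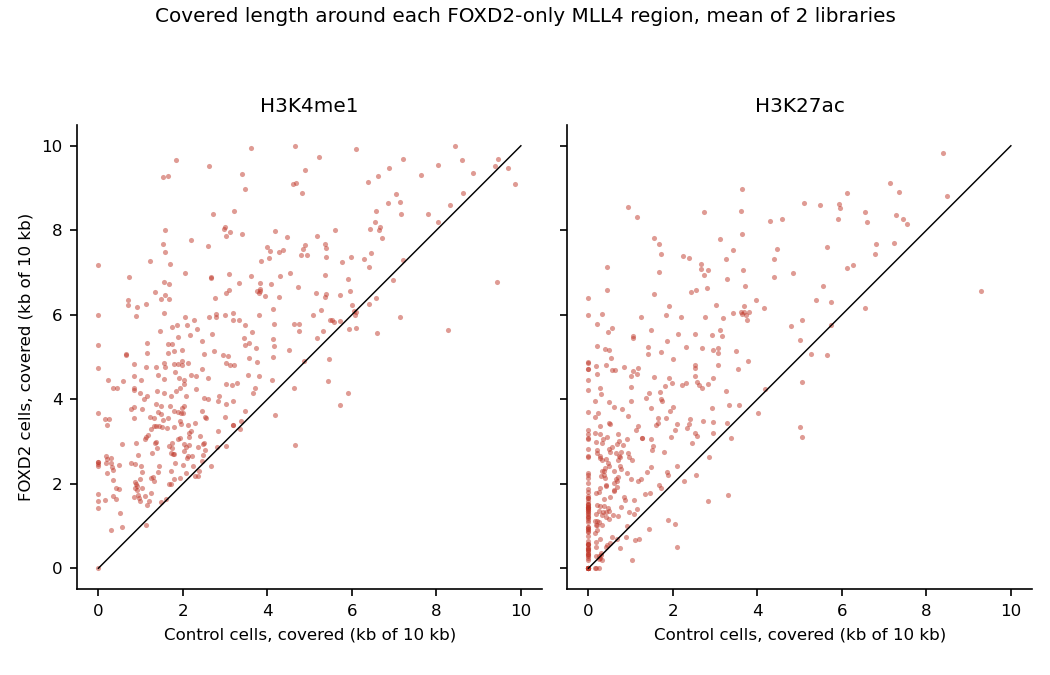
Length covered by H3K4me1 (left) or H3K27ac (right) peaks within 5 kb either side of each FOXD2-only MLL4 region, as the mean of 2 FOXD2 libraries (vertical axis, kb) against the mean of 2 Control libraries (horizontal axis, kb); the line marks equal values. Most points lie above the line, and a column of points at 0 on the Control axis of the H3K27ac panel shows members with no H3K27ac nearby in Control cells.

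In profile, H3K4me1 formed a broad plateau in FOXD2 cells and a narrower peak in Control cells. At the centre bin, 97.5% and 97.5% of members were covered in the FOXD2 libraries and 90.0% and 87.8% in the Control libraries. In the outer 500 bp at both ends the values were 24.7% and 28.2% in FOXD2 and 17.1% and 15.4% in Control libraries, so coverage was higher with FOXD2 at 5 kb as well. H3K27ac covered 68.5% and 64.4% of members at the centre in FOXD2 and 33.6% and 28.0% in Control libraries. In the outer 500 bp these shares were 19.0% and 23.5% in FOXD2 and 13.4% and 11.4% in Control libraries.

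**Figure D4:**
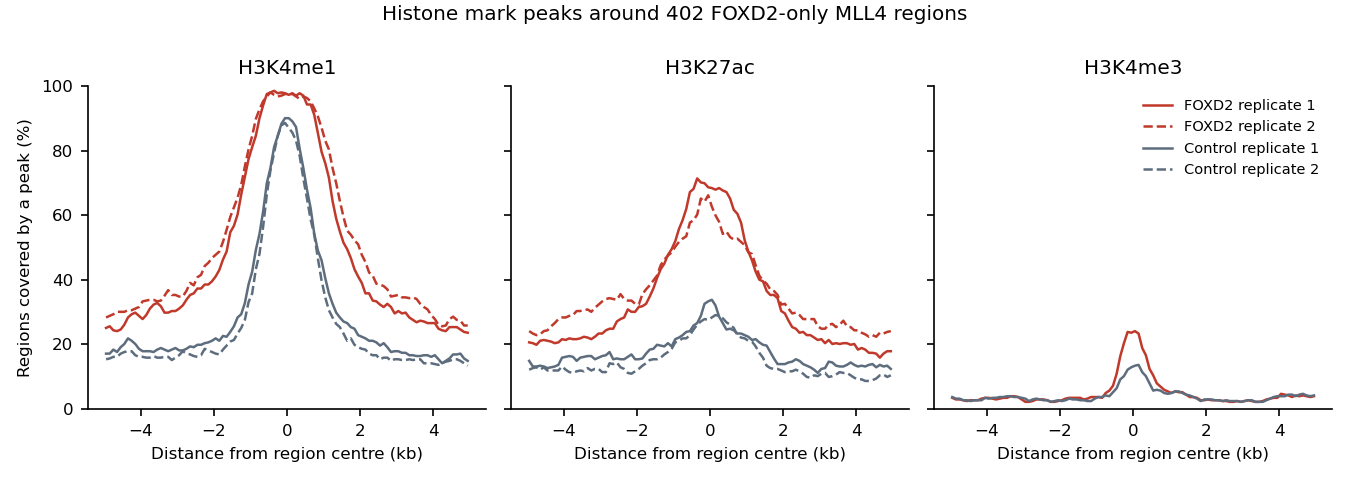
Share of the FOXD2-only MLL4 regions (%) covered by a peak at each distance from the region centre (kb), in 100 bp bins, for 2 FOXD2 and 2 Control libraries of H3K4me1 and H3K27ac and 1 of each for H3K4me3. Both FOXD2 curves of H3K27ac, at 68.5% and 64.4% at the centre, stand above both Control curves, at 33.6% and 28.0%.

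H3K4me3 was less frequent at members than at the other classes, and its lists differed in direction. It overlapped 136 members (33.8%) in the FOXD2 list and 74 (18.4%) in the Control list, compared with 62.0% (FOXD2) and 72.1% (Control) of control-only regions and 81.6% (FOXD2) and 85.7% (Control) of regions of all 4 lists. At 72 members (17.9%) it lay in the FOXD2 list alone, against 2.15% of all MLL4 regions, and at 10 (2.49%) in the Control list alone, against 4.91%. The corresponding counts were 56 (FOXD2 alone) and 316 (Control alone) at control-only regions, and 72 (FOXD2 alone) and 161 (Control alone) at regions of all 4 lists. With 1 library per group, there is no replicate check of this difference. Of the members, 256 had H3K4me3 in neither list, and these included 66 of the 96 with H3K27ac gain and 17 of the 19 with H3K4me1 gain.

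Peaks of tagged FOXD2 were found at a minority of members. The 6xHis lists overlapped 72 and 36 members (17.9% and 8.96%), and the FLAG lists 64 and 96 (15.9% and 23.9%). The shares at control-only regions were 22.6% and 16.3% for 6xHis and 19.1% and 28.8% for FLAG, so members were lower in 4 of 4 lists, with a mean difference of -5.03 points (exact sign-flip test over 4 lists, p = 0.125, the smallest it allows). Members were also lower than regions of all 4 MLL4 lists in 4 of 4 tag lists, with differences of -19.3 to -9.50 points, and higher than all MLL4 regions in 4 of 4, by 0.633 to 6.54 points (p = 0.125 by the same exact test for both). Any tag peak touched 145 members (36.1%), against 23.3% of all MLL4 regions. The median widths given above were 572 bp for members, 566 bp for control-only regions and 946 bp for regions of all 4 lists. Over all MLL4 regions the median was 416 bp, and the part of width in these shares was not tested.

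A tag site, a merged tag region present in all 4 tag lists, overlapped 17 members (4.23%, 95% Wilson interval 2.66% to 6.67%), against 4.93% of all MLL4 regions, 9.42% of control-only regions and 13.4% of regions of all 4 MLL4 lists. None of the 96 members with H3K27ac gain held a tag site, and 26 of them (27.1%) held any tag peak. Among the 127 members with H3K27ac in all 4 lists, 9 held a tag site and 56 (44.1%) any tag peak. Of the 19 members with H3K4me1 gain, 1 held a tag peak. No test was made of these shares, which rest on few sites. At −log10 q of 5 or more, 1 of 255 members held a tag site. A site defined by 2 or more tag lists was held by 72 of 402 members (17.9%), against 14.4% of all MLL4 regions, 26.2% of control-only regions and 33.3% of regions of all 4 MLL4 lists. With that definition the members' share was above that of all MLL4 regions, whereas with all 4 tag lists it was below. The count of tag sites was 34 without 6xHis replicate 2, and 42 of 551, 38 of 649, 71 of 1260 and 225 of 13999 when Control MLL4 replicate 1 or 2, or FOXD2 MLL4 replicate 1 or 2, was left out. As shares of regions, the latter were 7.62%, 5.86%, 5.63% and 1.61%.

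The 10 strongest tag-site members lay nearest to AZIN1, AAK1, GNPDA1, RUNX2, SPAG9, ATG16L1, KCNN3, ARHGEF10L, GPAT3 and ARL6IP5. RUNX2, a transcription factor of bone development, held a member at chr6:45445945-45446428 with tag peaks in all 4 lists. Around it, H3K27ac covered 1744 and 1438 bp in FOXD2 and 0 and 0 bp in Control libraries, and H3K4me1 covered 7025 and 7490 bp in FOXD2 and 6126 and 5394 bp in Control libraries. AAK1, a kinase of clathrin-coated vesicle formation, held a member at chr2:69601297-69601627 with tag peaks in all 4 lists and no H3K27ac peak inside it in any library, although H3K27ac nearby covered 2428 and 913 bp in FOXD2 and 0 and 0 bp in Control libraries. The member 3.78 kb from ATG16L1, an autophagy gene, lay in H3K27ac in all 4 lists, which covered 8437 and 6617 bp in FOXD2 and 3470 and 3390 bp in Control libraries. Covered lengths at SPAG9, a scaffold of JNK signalling, overlapped between the groups for both H3K4me1 (3084 and 2674 bp in FOXD2, 3141 and 2450 bp in Control) and H3K27ac (2634 and 3762 bp in FOXD2, 2950 and 2940 bp in Control).

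The 10 members with the lowest sum of ranks of −log10 q over the FOXD2 MLL4 lists lay in or nearest to ZCCHC4, N4BP1, CABP1, MTA3, COL4A2, KAZALD1, LMOD3, APIP, MACF1 and VDAC1. The N4BP1 member lay 308 kb from that gene. All 10 had H3K4me1 in all 4 lists, and 4 of them gained H3K27ac. MACF1 encodes a linker of actin and microtubules, and its member at chr1:39158689-39159564 lay inside the gene. H3K27ac around it covered 6382 and 5626 bp in FOXD2 and 0 and 0 bp in Control libraries, and H3K4me1 covered 8656 and 9859 bp in FOXD2 and 1302 and 1768 bp in Control libraries. The member at chr11:34825106-34826598 contained the LOC105376625 promoter printed above and lay 55.7 kb from APIP, an enzyme of methionine salvage. There H3K27ac covered 6740 and 6423 bp in FOXD2 and 535 and 349 bp in Control libraries.

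MTA3, a subunit of the NuRD chromatin remodelling complex, had the largest MLL4 fold in replicate 1 (18.4, and 10.3 in replicate 2) and H3K27ac of 2246 and 4480 bp in FOXD2 and 1451 and 874 bp in Control libraries. LMOD3, an actin nucleator of muscle, was the fourth of these gains, with 513 and 2115 bp in FOXD2 and 0 and 0 bp in Control libraries. The strongest member of all, at chr4:25299640-25300453 and 12.3 kb from ZCCHC4, had no H3K27ac peak inside it in any library. At COL4A2, which encodes a chain of collagen IV, the H3K27ac lengths of 1669 and 4730 bp in FOXD2 and 3747 and 1278 bp in Control libraries overlapped. Among the 10 strongest members, H3K27ac thus ranged from no peak in any library to gain.

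**Figure D5:**
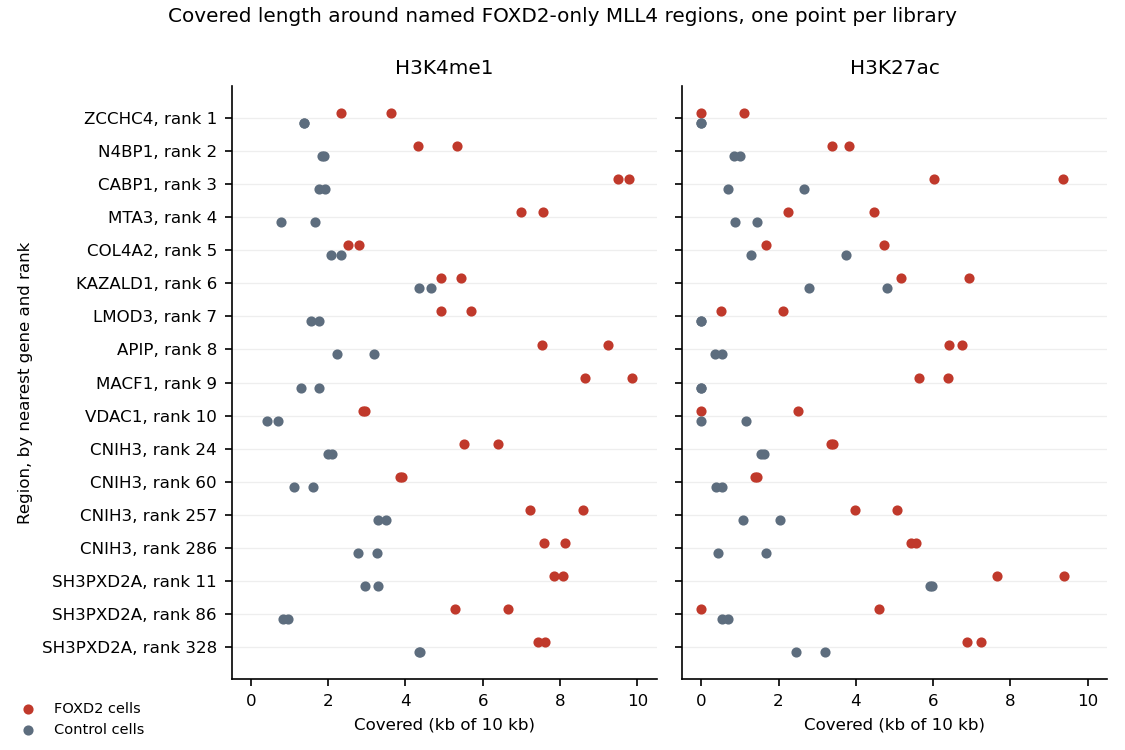
Length covered by H3K4me1 (left) or H3K27ac (right) peaks within 5 kb either side of the 10 strongest members and the members of CNIH3 and SH3PXD2A, in kb; points are libraries, FOXD2 above Control in each row. H3K4me1 points of the FOXD2 libraries lie to the right of the Control points in every row, and H3K27ac points overlap in some rows, such as COL4A2 and VDAC1.

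Gain of both marks was found at 10 members, in or nearest to TMEM154, GALNT16, MTMR12, MYZAP (2 members), DIP2C, C5orf63, CTAGE1, OCM and MANEAL. The share of all MLL4 regions with gain of both marks was not counted, so this count has no background beside it. By the definition of gain, these members held no Control peak of either mark. Low Control values around them follow in part from that choice. H3K4me3 and tag peaks were absent from all 10. The strongest, at chr4:152709351-152710263 and 29.4 kb from TMEM154, a gene for a transmembrane protein, had H3K4me1 over 4514 and 4954 bp in FOXD2 and 0 and 0 bp in Control libraries. H3K27ac there covered 5878 and 3904 bp in FOXD2 and 0 and 0 bp in Control libraries. In GALNT16, which encodes a transferase of O-linked glycosylation, H3K4me1 covered 2609 and 2410 bp in FOXD2 and 0 and 0 bp in Control libraries. The 2 members in MYZAP, a gene for a protein of cardiac cell junctions, lay at chr15:57675360-57675952 and chr15:57679903-57680377, so their windows overlap. The second had H3K4me1 over 5764 and 6208 bp in FOXD2 and 0 and 0 bp in Control libraries, and H3K27ac over 7027 and 5026 bp in FOXD2 and 650.0 and 0 bp in Control libraries. In 8 of the 10 windows no H3K4me1 base was covered in either Control library, and the windows near MTMR12 and MANEAL were the exceptions.

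Of the members, 198 (49.3%) lay inside a protein-coding gene. The shares were 62.4% of all MLL4 regions, 59.4% of control-only regions and 55.9% of regions of all 4 lists. In all, 362 members (90.0%) lay in or within 100 kb of a gene, against 94.5% of all MLL4 regions. They were assigned to 346 genes, and 40 members lay farther away. The 346 were 2.85% of the 12121 genes with any MLL4 region. Of them, 333 had 1 member, 11 had 2, 1 had 3 and 1 had 4. Chromosome 1 held the most members, 59 of its 3298 MLL4 regions, and per MLL4 region the share ran between 0.489% on chromosome 19 and 2.17% on chromosome 4. Chromosome 8 held 21 members, and its promoter windows are among those not analysed here.

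CNIH3, which encodes an auxiliary subunit of AMPA-type glutamate receptors, held 4 members of its 5 MLL4 regions, all inside the gene (chr1:224434640-224740554). Over the gene, H3K4me1 peaks covered 43.7 and 53.5 kb in FOXD2 and 18.3 and 18.0 kb in Control libraries, and H3K27ac 23.7 and 29.1 kb in FOXD2 and 14.0 and 7.56 kb in Control libraries. The groups did not overlap for either mark, and at each of the 4 members the FOXD2 libraries also exceeded the Control libraries in both. The strongest of them, at chr1:224454405-224455045, had an MLL4 fold of 7.46 and 16.8 and no H3K27ac peak inside it. H3K27ac within 5 kb of that member covered 3416 and 3369 bp in FOXD2 and 1631 and 1552 bp in Control libraries.

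SH3PXD2A, the gene of the podosome scaffold TKS5, held 3 members of 30 MLL4 regions. H3K4me1 over the gene covered 70.5 and 85.8 kb in FOXD2 and 39.5 and 33.9 kb in Control libraries, while H3K27ac, at 76.6 and 146.8 kb in FOXD2 and 105.0 and 56.7 kb in Control libraries, overlapped between the groups. KCNN3, a calcium-activated potassium channel, held 2 members of 6, and its H3K27ac of 18.8 and 35.6 kb in FOXD2 and 32.8 and 17.7 kb in Control libraries overlapped between the groups. Within KCNN3, the member at chr1:154730047-154731219 gained H3K27ac, which covered 5100.0 and 6261 bp in FOXD2 and 976 and 135 bp in Control libraries. IRF2BPL, a gene of a single short span, had its 2 members on either side at 16.1 kb each, and both had H3K4me1 and H3K27ac in all 4 lists. Control-only MLL4 regions numbered 1 at IRF2BPL and 0 at CNIH3, SH3PXD2A and KCNN3.

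Of the 143 genes in the lists examined, 7 had a member. These were 5.38% of the 130 listed genes with any MLL4 region, beside the 2.85% of all genes with an MLL4 region given above, and no test was made. The same genes also had control-only MLL4 regions in part: 2 at RNF43, 2 at SPRY4, 1 at SPRED2, 1 at KMT2A and 0 at NKD1, DSP and MMP2. Wnt targets had 2 of 15, RNF43 and NKD1, both negative feedback regulators of the pathway. NKD1 gained H3K27ac at its member, and around it H3K27ac covered 6521 and 8143 bp in FOXD2 and 3447 and 1319 bp in Control libraries. In RNF43, H3K27ac around the member at chr17:58376932-58377543 covered 7193 and 7086 bp in FOXD2 and 881 and 0 bp in Control libraries. The EGFR and MAPK feedback list had 2 of 16, the pathway inhibitors SPRED2 and SPRY4 (78.5 kb away). At SPRED2, H3K27ac covered 7255 and 4627 bp in FOXD2 and 891 and 1612 bp in Control libraries.

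One gene of 17 for H3K4 methyltransferase complexes had a member, which lay 12.5 kb from KMT2A, itself an H3K4 methyltransferase, with H3K27ac over 3700.0 and 3437 bp in FOXD2 and 329 and 0 bp in Control libraries. Epithelial junction and keratin genes had 1 of 15, at the desmosomal gene DSP, where H3K27ac covered 0 and 945 bp in FOXD2 and 1127 and 353 bp in Control libraries and so overlapped. Mesenchymal genes had 1 of 10, at the gelatinase gene MMP2, where H3K27ac of 1482 and 2762 bp in FOXD2 and 1631 and 396 bp in Control libraries overlapped as well. No member was nearest to any of the 10 enhancer coactivator genes, 14 intestinal transcription factor genes, 15 p53 targets, 15 YAP and AP-1 genes or 16 TGF-beta and BMP genes.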

How the data were processed

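Per the submitters' processing notes, the build was hg38 and the tools included MACS2 2.2.7.1, Bowtie2 2.3.4.1, cutadapt 3.4, bedtools and Picard. Per the labels' protocols, MLL4 and the tags were precipitated from crosslinked, sonicated chromatin and histone marks from MNase-digested chromatin. The series has 25 libraries, of which 18 have a peak list and 7 are inputs not used here. The authors deposited 1 narrowPeak list per library, with each peak's fold enrichment (a ratio), the −log10 of its p-value and of its q-value, and its summit. These are the authors' own values and serve here for description, ranking and filtering inside each list. Neither the input used as background nor the read depth is known from these sources. Replicate numbers came from the labels, although some peak names differ from them.

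Only chromosomes 1 to 22 and X were used, and peaks were merged at a gap of 0 bp, and a list held a region with 1 bp or more of a peak. The rule that chose the members did not use the mark lists. Libraries were the unit of test: group means were compared by two-sided exact permutation, and tag lists by an exact sign-flip test. The 95% Wilson intervals count regions only, which are not replicates. Covered length was counted within 5 kb of the centre. Each region went to its nearest protein-coding RefSeq gene of GRCh38.p14 within 100 kb of its span; more distant genes are given as nearest only. All 143 listed genes matched that table, and 15812 of its 19974 protein-coding genes had a promoter window. The table lacks promoters of some genes, and a sequence of the regions themselves was not used here.

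The members, gene lists and tests were chosen with earlier results of these data known. Named regions followed a rule: the 10 members that ranked best by −log10 q, summed over both FOXD2 MLL4 lists, up to 10 with gain of both marks, up to 10 at tag sites, the 5 genes with most members, members of the gene lists, losses, and regions just inside and outside the rule. One item named by this rule is not reported here. Alternatives were a q threshold, equal list lengths, other overlaps, gaps, windows and tag sites, members without H3K4me3, each library left out and a replicate block. On simulated lists, the member count, the H3K27ac gain count and the H3K27ac share were checked against planted values. Other steps were not checked in this way. Python 3.11.15, numpy 2.4.6, pandas 2.3.3 and matplotlib 3.10.9 were used.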

Additional observations from a re-analysis of the deposited data

How the results depend on the processing

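No difference between FOXD2 and Control libraries changed direction under any alternative run. The tests could not pass 0.05 with 2 libraries per group. Without FOXD2 MLL4 replicate 2, however, the separation of the groups was lost. The FOXD2 and Control libraries then overlapped for both marks in share, in the difference beyond regions of all 4 lists and in covered bases. The exact permutation p there was above the smallest possible, at 0.667 for H3K27ac share and for H3K27ac covered bases. Outside the leave-one-out settings, the difference in share ran between 2.2 and 9.96 points for H3K4me1 and between 25.2 and 40.4 points for H3K27ac, and the difference beyond regions of all 4 MLL4 lists between 2.07 and 9.96 and between 21.2 and 32.3 points. The lowest came from equal list lengths, where 455 regions met the rule and 7 gained H3K4me1.

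At −log10 q of 5 or more, 255 regions met the rule. Of these, 11 gained H3K4me1, 63 gained H3K27ac, 215 had more H3K4me1 bases in both FOXD2 libraries, 164 had more H3K27ac bases and 1 held a tag site. Among the 256 members without H3K4me3, those counts were 221 for H3K4me1 bases, 173 for H3K27ac bases and 9 for tag sites. A tag site of 2 or more lists was held by 72 members. The members' share against all MLL4 regions then turned, at 17.9% of members and 14.4% of all MLL4 regions, whereas with all 4 tag lists it was 4.23% of members and 4.93% of all MLL4 regions. The counts of bases and a fixed window of 400 bp were added after seeing the data.

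Leaving out 1 library at a time, members numbered 551 to 13999, H3K4me1 gains 19 to 307, H3K27ac gains 106 to 524, members with more H3K4me1 bases 338 to 3235 and with more H3K27ac bases 289 to 2741, and tag sites 19 to 225. Every highest count came from leaving out FOXD2 MLL4 replicate 2. As shares of the 13999 regions, these counts were 2.19% and 3.74% for the gains, 23.1% and 19.6% for the bases, and 1.61% for tag sites. Differences in share ran from 0.229 to 9.80 points for H3K4me1 and 5.63 to 38.2 points for H3K27ac. Beyond regions of all 4 lists they ran from 0.430 to 9.88 and from 1.99 to 34.1 points, and covered bases from 221 to 2292 bp and from 610.2 to 2008 bp. Every lowest difference came from leaving out FOXD2 MLL4 replicate 2, and the cause was not tested.

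With the replicate number as a block, the differences were the same (7.46 and 36.7 points in share, 7.49 and 32.3 points beyond regions of all 4 lists, 2086 and 1875 bp), with an exact sign-flip p of 0.5, the smallest that 2 pairs allow. With 2 pairs, whether the numbers pair the libraries could not be checked. Peak lists without depth limit all values to called peaks, so a region without a peak may still hold signal.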
